A study of Mus musculus with 6 samples.

Results

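The genes described here are 40 members of the ATF4 branch of the integrated stress response and of the amino acid supply that it serves, read in mouse esophageal organoids. They were taken by gene name from the deposited table of 52636 genes: 15 stress response genes, 11 enzymes of amino acid synthesis, 5 folate enzymes and 9 amino acid transporters. All 40 were found, and 39 were among the 18241 genes with at least 1 CPM, the authors' read count scaled for depth, in at least 2 of the 6 libraries, the ones that were tested; the cystathionine synthase Cbs was not.

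The organoids were grown from esophagi of Krt5CreER:RosaSmoM2 mice collected 5 days after tamoxifen. In these mice a tamoxifen-dependent Cre under the keratin 5 promoter, which is active in basal epithelial cells, switches on SmoM2, an always-on version of Smoothened, which passes on the Hedgehog signal, and all groups, the controls included, came from such mice. The digested cells were kept in Matrigel for 13 days. The first group received TGFb1 (1 ng/ml), BMP4 (20 ng/ml) and ibuprofen (500 µM, a cyclooxygenase inhibitor) and is called the ibuprofen organoids, the second received TGFb1 and BMP4 at those doses and is called the ligand organoids, and the control group received the TGFb inhibitor A8301 (500 nM) and is called the inhibitor organoids. Each treatment lasted 72 h, was renewed every 24 h and had 2 libraries. Every group had either the inhibitor or the ligands, and no source says whether the inhibitor remained with the ligands, so TGFb1, BMP4 and withdrawal of the inhibitor cannot be told apart. Whether the paired libraries within a treatment are from separate mice or cultures is not in the labels, so the p-values measure the spread between these libraries, which may be technical.

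In the integrated stress response, kinases such as PERK and GCN2 phosphorylate the translation factor eIF2, which slows general protein synthesis while ATF4 mRNA is translated more. ATF4 then pairs with C/EBP proteins on a composite DNA element and switches on genes for amino acid synthesis, folate metabolism, amino acid import and feedback, among them its inhibitor TRIB3. Much of the control of ATF4 lies in translation, so the mRNA levels given here do not measure ATF4 protein or eIF2 phosphorylation. In mammalian cells this branch is best known as the response to a shortage of amino acids.

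Depth derived from the deposited values was 6413873 to 7730582 reads per library. The summed level of 7 markers of basal esophageal epithelium, with Krt14 and Krt5 leading, was 15698 and 16277 CPM in ibuprofen organoids, 18758 and 16652 CPM in ligand organoids, and 8186 and 7877 CPM in inhibitor organoids. Of the 7, Krt15 and Trp63 went the other way. Krt15 had 4.05 and 5.80 CPM in ibuprofen organoids, 29.5 and 22.6 CPM in ligand organoids, and 219.8 and 80.7 CPM in inhibitor organoids. It was lower in all 3 comparisons. Trp63 had 337.7 and 377.1 CPM in ibuprofen organoids, 398.8 and 458.7 CPM in ligand organoids, and 620.3 and 678.2 CPM in inhibitor organoids. It was lower in both groups with ligands than in inhibitor organoids. Other marker lists also moved with the treatments. The summed level of 8 fibroblast markers was 1507 and 1915 CPM in ibuprofen organoids, 2026 and 3178 CPM in ligand organoids, and 169 and 230.2 CPM in inhibitor organoids. That of 6 suprabasal markers was 780.3 and 1362 CPM in ibuprofen organoids, 5041 and 3599 CPM in ligand organoids, and 14802 and 12535 CPM in inhibitor organoids. That of 10 cycling cell markers was 72.8 and 89.7 CPM in ibuprofen organoids, 64.9 and 149 CPM in ligand organoids, and 341 and 318 CPM in inhibitor organoids. That of 6 muscle markers was 890.7 and 1156 CPM in ibuprofen organoids, 1055 and 1378 CPM in ligand organoids, and 513 and 586 CPM in inhibitor organoids. Among the suprabasal markers Ivl went the other way under the ligands. Ivl had 20.5 and 11.4 CPM in ibuprofen, 18.8 and 18.7 CPM in ligand, and 0.999 and 1.05 CPM in inhibitor organoids. Of 4 pan-epithelial markers, Krt5 among them, Epcam was higher in all 3 comparisons and Cdh1 and Dsp were called in none. Epcam had 530 and 296 CPM in ibuprofen, 132 and 94.5 CPM in ligand, and 46.5 and 57.0 CPM in inhibitor organoids. Immune markers summed to between 23.6 and 61.7 CPM, with Cd3e and Cd79a at 0.3 CPM or less and Ptprc at 0.5 CPM or less in every library, and endothelial and glial markers to at most 10.5 and 6.70 CPM. Among the immune markers the macrophage gene Cd68 had the same order of groups as most of the 40 genes, at 18.8 and 15.0 CPM in ibuprofen organoids, 7.50 and 8.29 CPM in ligand organoids, and 49.1 and 50.8 CPM in inhibitor organoids. Cd68 fell by 2.5 on the log2 scale under the ligands (adjusted p = 8.07e-06, limma) and rose by 1.07 with ibuprofen against ligand organoids (adjusted p = 0.00178, limma). The other immune markers tested, Itgam and Lyz2, did not share that order. Itgam, at 4.3 CPM or less in every library, rose by 1.80 under the ligands (adjusted p = 0.000731, limma). It changed by −1.47 with ibuprofen against ligand organoids (adjusted p = 0.00496, limma). Lyz2 changed by 1.77 and 0.43 in those comparisons, neither at an adjusted p under 0.05 by limma. The part of these cell types in the results below was not tested, and in bulk RNA fewer cells of a type and less RNA per cell cannot be told apart.

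The C/EBP-ATF composite element is the DNA sequence that ATF4 is known to bind, so the promoters of the 40 genes were searched for TGATGNAAN on both strands, over windows from 250 bases before to 50 bases after the annotated start of transcription. RefSeq windows on GRCm38.p6 were at hand for 34 of the 40 genes. The element matched in 8 of these 34 genes (23.5%), against 1215 of all 27025 genes with a window (4.50%). The genes were chosen as members of the ATF4 branch and of the supply that it serves. A higher share than among all genes could follow from that choice alone, so these shares only describe the set. A match is a run of letters and not evidence of binding, and no match says only that these letters are not in this window. The 49-base stretches around the matches in 7 genes are shown to let them be compared, with the match in capitals. They lie at chr6:7693204-7693252 (minus strand) for Asns, chr2:119351028-119351076 (plus strand) for Chac1, chr19:43524680-43524728 (minus strand) for Got1, chr7:126625553-126625601 (minus strand) for Nupr1, chr11:120643823-120643871 (minus strand) for Pycr1, chr11:20332690-20332738 (minus strand) for Slc1a4 and chr19:27216799-27216847 (plus strand) for Vldlr, all in GRCm38.
Asns: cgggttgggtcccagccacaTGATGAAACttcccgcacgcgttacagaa
Chac1: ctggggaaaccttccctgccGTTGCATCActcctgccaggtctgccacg
Got1: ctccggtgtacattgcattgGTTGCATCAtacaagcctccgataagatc
Nupr1: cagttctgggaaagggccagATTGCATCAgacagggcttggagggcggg
Pycr1: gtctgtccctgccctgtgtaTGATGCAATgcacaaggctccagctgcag
Slc1a4: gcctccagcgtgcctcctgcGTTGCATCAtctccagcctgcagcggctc
Vldlr: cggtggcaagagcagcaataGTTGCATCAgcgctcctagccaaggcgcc

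In Asns and Pycr1 the element read TGATG on the strand of the gene. In the other five it lay on the opposite strand and so appears in capitals as its complement ending in CATCA, 4 times in the same form, GTTGCATCA. Trib3 held TTTACATCA, also on the opposite strand, beginning 13 bases after its start. The stricter form TGATGCAAT was found in 2 of the 34 genes, Nupr1 and Pycr1, against 60 of all 27025, which likewise only describes the set.

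**Figure D1:**
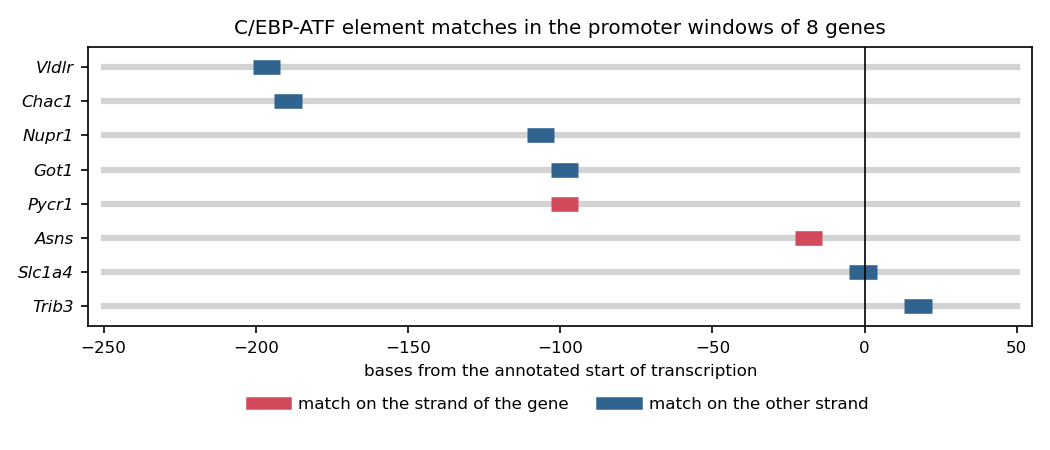
Place of the C/EBP-ATF element in the promoter windows of the 8 genes that held it. The x axis gives bases from the annotated start of transcription, grey bars are the windows searched, and coloured blocks are matches on the strand of the gene or on the other strand. Matches begin between positions −201 (Vldlr) and 13 (Trib3). That of Vldlr is counted from the later of its annotated starts, and the window at the earlier start held no match.

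Most genes of the set were lower under the ligands. The 40 genes were chosen with earlier results of these data known, so their counts beside those of all genes only describe the set. Of the 39 genes tested, 34 fell and 3 rose in ligand organoids against inhibitor organoids, by limma on log2(CPM + 1) at an adjusted p under 0.05, while 19.4% of all genes tested fell and 20.8% rose. In all, 40.2% of the genes tested were called in this comparison. The median log2 fold change of the 39 was −1.38, against 0.01 for all genes tested; 24 of them were past the threshold and at least 2-fold lower and 1 at least 2-fold higher, as were 7.24% and 9.63% of all genes. The libraries of the 2 groups did not overlap in 34 genes that were lower and 3 that were higher, and for 72.2% of all genes. When ibuprofen was added to the ligands, 26 of the 39 rose and none fell against ligand organoids (unadjusted p under 0.05: 30 higher, 1 lower), while 10.5% of all genes rose and 8.98% fell. Over both directions 19.5% of the genes tested were called. The median of the 39 was 0.94, against −0.01 for all genes tested, and 18 of them were past the threshold and at least 2-fold higher and none at least 2-fold lower, as were 2.84% and 4.05% of all genes. In 31 genes both ibuprofen libraries were above both ligand libraries and in 1 both were below, where 58.8% of all genes had groups apart. Set directly against inhibitor organoids, ibuprofen organoids were lower in 24 of the 39 and higher in 5, at a median of −0.47, while 19.3% of all genes were lower and 21.1% higher, 40.4% in all. Of the 39, 12 were past the threshold and at least 2-fold lower and 3 at least 2-fold higher, as were 7.76% and 9.12% of all genes, and the groups were apart in 6 genes upward and 31 downward, against 72.4% of all genes in either direction. In the first comparison 5 of 6 suprabasal markers and 10 of 10 cycling cell markers fell. The other suprabasal marker, Ivl, and 8 of 8 fibroblast markers rose. Of the 7 basal markers 5 rose and 2, Krt15 and Trp63, fell, and all 4 muscle markers tested rose. In the second, 3 of 6 suprabasal, 4 of 8 fibroblast, 1 of 7 basal and 1 of 4 muscle markers fell, and 1 fibroblast marker rose. The first comparison and the second share the ligand libraries, so opposite signs in them are not independent of each other.

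The summed level of all 40 genes was 4343 and 3506 CPM in ibuprofen organoids, 2184 and 2167 CPM in ligand organoids, and 6403 and 6558 CPM in inhibitor organoids. The 3 groups did not overlap, and the mean of ibuprofen organoids was 60.6% and that of ligand organoids 33.6% of the mean of inhibitor organoids. The share of counts in ribosomal protein genes lay in the same order, at 1.97% and 1.81% in ibuprofen organoids, 1.36% and 1.36% in ligand organoids, and 2.83% and 2.61% in inhibitor organoids. That of the nuclear RNAs Malat1 and Neat1 was 3.3% and 3.33% in ibuprofen organoids, 2.86% and 2.98% in ligand organoids, and 1.74% and 1.56% in inhibitor organoids, higher in both groups with ligands. The part of these 2 shares in the members' levels was not tested. The 2 ibuprofen libraries differed from each other: replicate 1 was above replicate 2 for 36 of the 40 genes, with a median ratio of 1.27, against 54.1% of all genes tested and a median ratio of 1.02. Without replicate 1 of the ibuprofen organoids, 23 of the 39 genes rose against ligand organoids, and without replicate 2, 28 did. Without replicate 2, 17 were lower than in inhibitor organoids. The authors' deposited table, which gives log2 fold changes over the inhibitor, had a negative value for 32 of the 40 genes in ibuprofen organoids (median −0.49) and for 36 in ligand organoids (median −1.48).

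**Figure D2:**
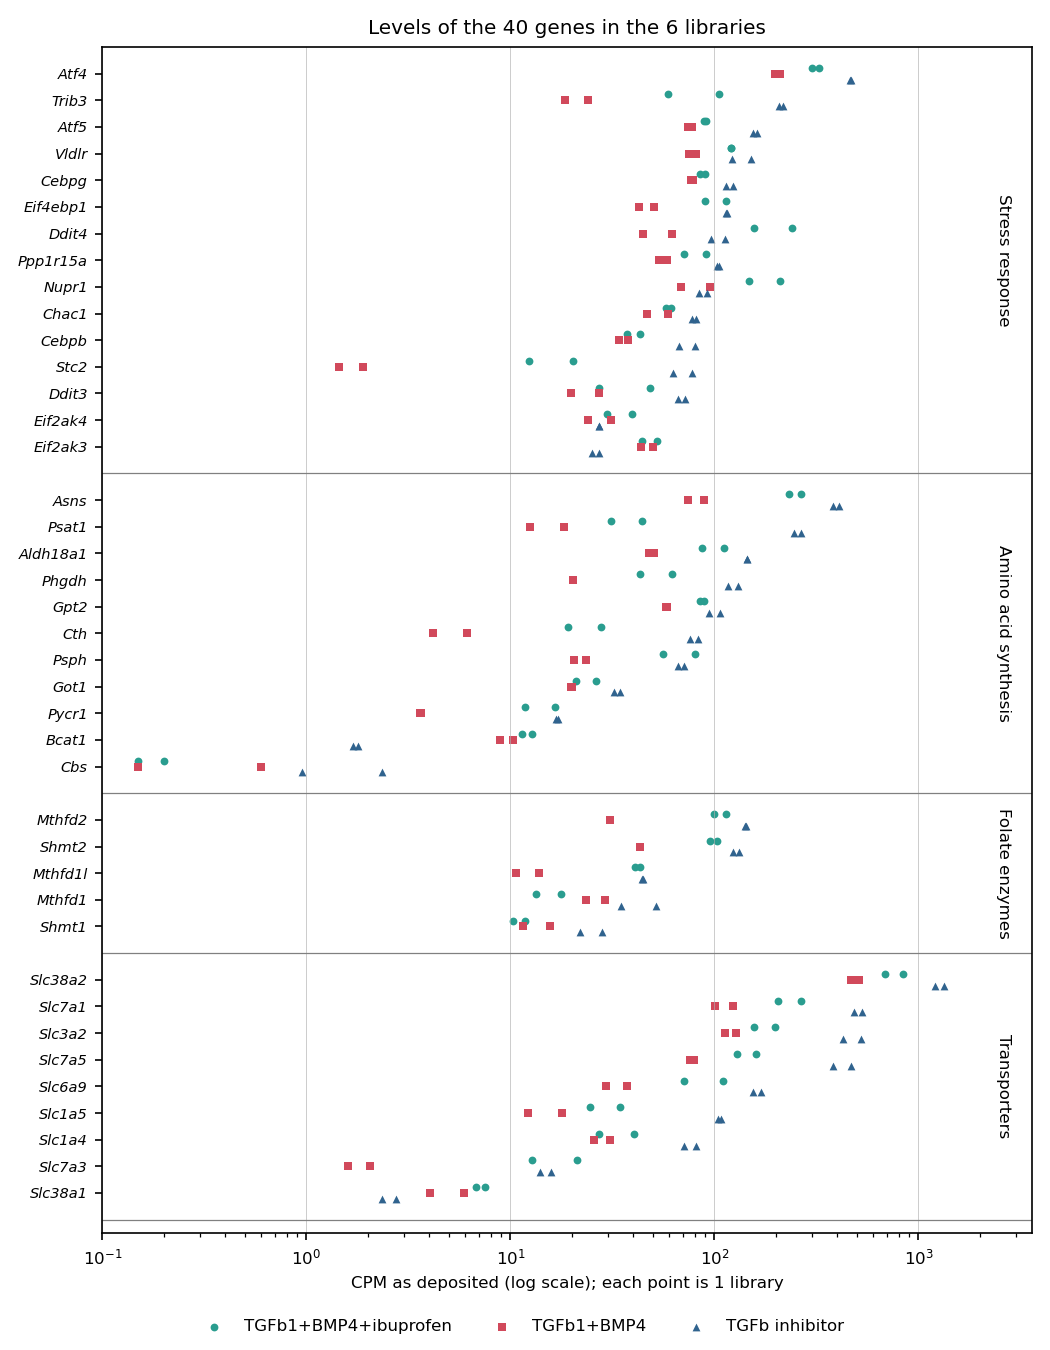
Level of each of the 40 genes in each library, in CPM on a log scale, one row per gene within its role group; each point is 1 library. In most rows the ligand libraries (squares) lie lowest and the inhibitor libraries (triangles) highest, while in Eif2ak3, Bcat1 and Slc38a1 the ligand libraries lie above the inhibitor libraries.

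Among the stress response genes the transcription factor Atf4 itself fell under the ligands and rose with ibuprofen. Atf4 (chr15:80255184-80257541, plus strand, GRCm38) stood at 325 and 299 CPM in ibuprofen organoids, 209 and 198 CPM in ligand organoids, and 463 and 469 CPM in inhibitor organoids. The 3 groups did not overlap, and the ligand libraries were lowest. In ligand organoids its change against inhibitor organoids was −1.17 ± 0.09 (log2 ± SE, adjusted p = 3.43e-05), and in ibuprofen organoids its change against ligand organoids was 0.68 ± 0.09 (log2 ± SE, adjusted p = 0.00161). Ibuprofen organoids remained below inhibitor organoids, at −0.49 ± 0.09 (log2 ± SE, adjusted p = 0.00339). Atf5, a related factor of the same response, was measured at 90.4 and 88.5 CPM in ibuprofen organoids, 78.0 and 74.3 CPM in ligand organoids, and 162 and 155 CPM in inhibitor organoids. It fell by 1.03 under the ligands, while its difference between ibuprofen and ligand organoids, 0.30 ± 0.09 (log2 ± SE, adjusted p = 0.0504), lay at the threshold.

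The largest falls in this group under the ligands were those of Stc2 and Trib3. Stc2, which encodes the secreted glycoprotein stanniocalcin 2, had 20.2 and 12.3 CPM in ibuprofen organoids, 1.90 and 1.45 CPM in ligand organoids, and 62.4 and 77.6 CPM in inhibitor organoids. The ligand values rest on 13 and 10 reads, so their counting error is large, but they lay far under both other groups. Stc2 changed by −4.70 ± 0.24 (log2 ± SE, adjusted p = 4.04e-06) in ligand organoids and by 2.72 ± 0.24 (log2 ± SE, adjusted p = 0.000246) when ibuprofen was added. Trib3, the pseudokinase that restrains ATF4, had 105 and 59.4 CPM in ibuprofen organoids, 18.5 and 23.9 CPM in ligand organoids, and 208 and 217 CPM in inhibitor organoids. It was 9.55-fold lower in ligand than in inhibitor organoids (log2 fold change −3.26, adjusted p = 1.71e-05) and 3.82-fold higher in ibuprofen than in ligand organoids (log2 fold change 1.93, adjusted p = 0.000771), on the log2(CPM + 1) scale. In both genes the 3 groups were apart and ibuprofen organoids lay between the others.

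Ddit4, Eif4ebp1 and Ppp1r15a also fell under the ligands, and rose with ibuprofen against ligand organoids. Ddit4, which encodes the mTORC1 inhibitor REDD1, had 239 and 156 CPM in ibuprofen organoids, 61.6 and 44.6 CPM in ligand organoids, and 96.2 and 113 CPM in inhibitor organoids. Both ibuprofen libraries were above all others, and Ddit4 rose by 1.93 ± 0.22 (log2 ± SE, adjusted p = 0.000687) against ligand organoids and by 0.98 ± 0.22 (log2 ± SE, adjusted p = 0.00726) against inhibitor organoids. Its fall under the ligands, −0.96 (adjusted p = 0.00815), was past the threshold with all libraries but not without replicate 2 of the inhibitor organoids (adjusted p = 0.0543), and its rise over inhibitor organoids did not pass it without replicate 1 of either group (adjusted p up to 0.0605). Eif4ebp1, which encodes the cap-binding inhibitor 4E-BP1, had 113 and 89.4 CPM in ibuprofen organoids, 50.7 and 42.7 CPM in ligand organoids, and 115 and 114 CPM in inhibitor organoids. The ligand libraries stood below the rest, and ibuprofen and inhibitor organoids differed by −0.09 ± 0.14 (log2 fold change ± SE), which was not past the threshold. Ppp1r15a, the GADD34 subunit that directs a phosphatase to eIF2, fell by 0.87 under the ligands and rose by 0.59 with ibuprofen, the second not past the threshold without replicate 1 of the ibuprofen organoids (adjusted p = 0.0654).

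Cebpb, Cebpg, Ddit3 and Chac1 fell under the ligands and, with all 6 libraries, were not called for ibuprofen against ligand organoids. Cebpb, one of the C/EBP partners, had 43.3 and 37.1 CPM in ibuprofen organoids, 34.1 and 37.8 CPM in ligand organoids, and 67.3 and 80.7 CPM in inhibitor organoids. It fell by 1.00 in ligand organoids (adjusted p = 0.000453), and ibuprofen and ligand libraries overlapped; 20.7% of its exonic bases are shared with Tmem189 on the other strand. Cebpg, another partner, Ddit3, which encodes the factor CHOP, and Chac1, a glutathione-degrading enzyme, fell by 0.58, 1.51 and 0.57 on the log2 scale. The fall of Chac1 did not pass the threshold without replicate 2 of the inhibitor organoids (adjusted p = 0.0554). Against ligand organoids, these 3 genes differed in ibuprofen organoids by 0.23 ± 0.09, 0.69 ± 0.24 and 0.24 ± 0.13 (log2 fold change ± SE), none past the threshold; without replicate 2 of the ibuprofen organoids Ddit3 was (adjusted p = 0.00904), and without replicate 1 of the ligand organoids Chac1 was (adjusted p = 0.0443). Vldlr, a lipoprotein receptor gene and ATF4 target, fell by 0.77 in ligand organoids and rose by 0.69 with ibuprofen.

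A few stress genes did otherwise. Eif2ak3, which encodes the kinase PERK upstream of ATF4, had 52.4 and 44.0 CPM in ibuprofen organoids, 49.9 and 43.6 CPM in ligand organoids, and 27.1 and 25.1 CPM in inhibitor organoids. Its ligand and ibuprofen libraries overlapped and all 4 were above the inhibitor libraries; Eif2ak3 rose by 0.83 ± 0.13 (log2 ± SE, adjusted p = 0.00138) in ligand organoids. Eif2ak4, which encodes the amino acid sensor GCN2, ranged from 24.1 to 39.6 CPM over the 6 libraries and was called in none of the 3 comparisons. Nupr1, a small stress-induced chromatin protein, had 209 and 148 CPM in ibuprofen organoids, 95.3 and 68.2 CPM in ligand organoids, and 91.5 and 83.6 CPM in inhibitor organoids. Ligand and inhibitor libraries overlapped, while both ibuprofen libraries were above them, and Nupr1 rose by 1.19 ± 0.19 (log2 ± SE, adjusted p = 0.00395) against ligand organoids. Over the 15 stress response genes, 12 fell and 1 rose in ligand organoids against inhibitor organoids, and 8 rose and none fell in ibuprofen organoids against ligand organoids (unadjusted p under 0.05: 12 higher, 0 lower). Among all genes tested, 19.4% fell and 20.8% rose in the first of these comparisons, and 10.5% rose and 8.98% fell in the second. Against inhibitor organoids, 3 of the 15 were higher and 7 lower in ibuprofen organoids. Of all genes tested, 21.1% were higher and 19.3% lower there, so the number higher is near that share.

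**Figure D3:**
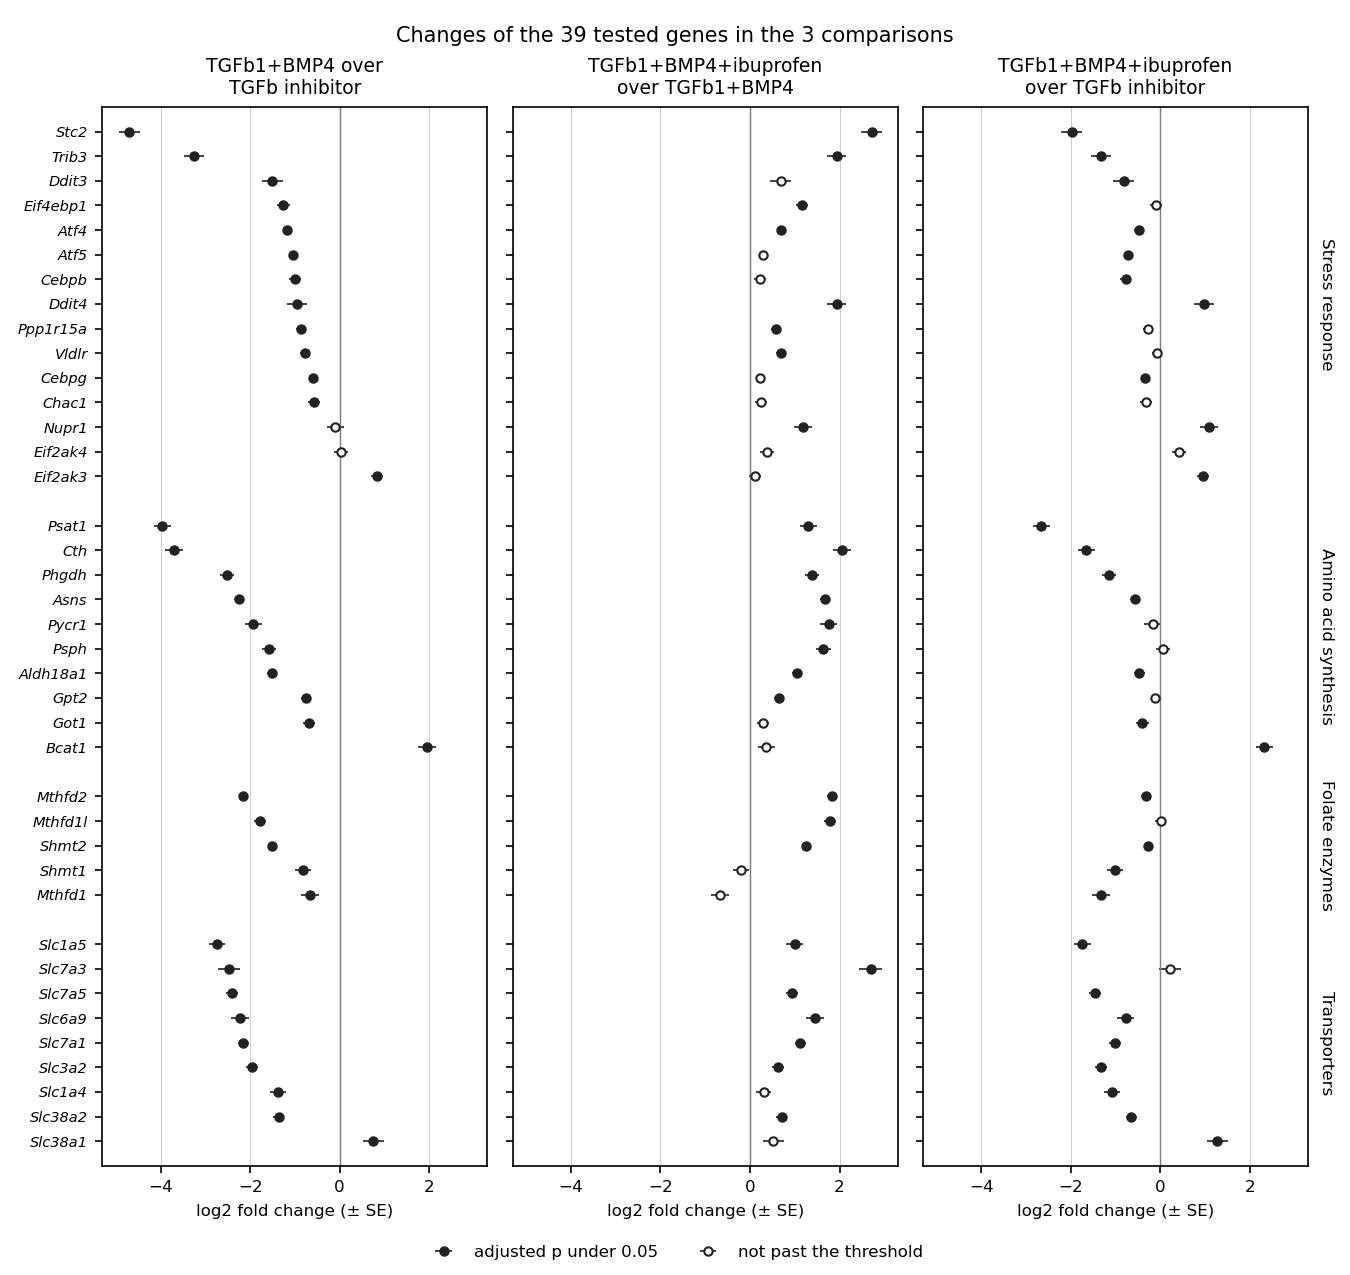
Log2 fold change with its SE for the 39 genes tested in the 3 comparisons, with filled points past an adjusted p of 0.05 by limma and genes ordered within each role by the first comparison. Most points lie left of 0 under the ligands (34 past the threshold) and right of 0 for ibuprofen over the ligands (26 past the threshold).

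The enzymes of amino acid synthesis fell under the ligands in 9 of the 10 tested and rose with ibuprofen in 8 of the 10. Of all genes tested, 19.4% fell in the first of these comparisons and 10.5% rose in the second. Asns, which makes asparagine from aspartate and whose promoter match is printed above, lies at chr6:7675169-7693254 (minus strand, GRCm38). It had 267 and 233 CPM in ibuprofen organoids, 74.2 and 89.4 CPM in ligand organoids, and 380.4 and 409 CPM in inhibitor organoids. The 3 groups were apart, with ibuprofen organoids in the middle, and the mean of ibuprofen organoids was 63.3% and that of ligand organoids 20.7% of that of inhibitor organoids. Asns changed by −2.24 ± 0.11 (log2 ± SE, adjusted p = 2.96e-06) in ligand organoids, by 1.67 ± 0.11 (log2 ± SE, adjusted p = 5.87e-05) with ibuprofen, and by −0.57 (adjusted p = 0.00308) in ibuprofen against inhibitor organoids.

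The 3 enzymes that make serine from a glycolytic intermediate all fell under the ligands and rose with ibuprofen, and they ended at different shares of the inhibitor level. Phgdh, which catalyses the first step, had 62.1 and 43.2 CPM in ibuprofen organoids, 20.2 and 20.3 CPM in ligand organoids, and 130.1 and 116 CPM in inhibitor organoids. Psat1, the aminotransferase of the second step, had 44.2 and 31.2 CPM in ibuprofen organoids, 12.5 and 18.4 CPM in ligand organoids, and 264 and 245 CPM in inhibitor organoids. Psph, the phosphatase of the last step, had 80.6 and 55.8 CPM in ibuprofen organoids, 23.4 and 20.6 CPM in ligand organoids, and 70.8 and 66.5 CPM in inhibitor organoids. In Phgdh and Psat1 ibuprofen organoids lay between the other groups, whereas in Psph they overlapped with inhibitor organoids. The mean of Psat1 in ibuprofen organoids was 14.8% of that in inhibitor organoids, against 42.7% for Phgdh and 99.4% for Psph. The log2 fold changes of ligand over inhibitor organoids were −2.52 ± 0.16 (log2 ± SE, adjusted p = 9.82e-06) for Phgdh, −3.96 ± 0.18 (log2 ± SE, adjusted p = 2.84e-06) for Psat1 and −1.58 ± 0.16 (log2 ± SE, adjusted p = 0.000147) for Psph. Those of ibuprofen over ligand organoids were 1.38 (adjusted p = 0.000698), 1.31 (adjusted p = 0.00199) and 1.64 (adjusted p = 0.000427) in the same order. As a ratio of CPM, Psph to Psat1 was 1.82 and 1.79 in ibuprofen organoids, 1.87 and 1.12 in ligand organoids, and 0.268 and 0.271 in inhibitor organoids, so that both groups with ligands stood above the inhibitor group. About 10.4% of the exonic bases of Psph are shared with Cct6a on the other strand, and no source says whether the counting used strand.

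Cth, the cystathionine lyase that releases cysteine, had 27.7 and 19.2 CPM in ibuprofen organoids, 4.20 and 6.10 CPM in ligand organoids, and 76.0 and 83.0 CPM in inhibitor organoids. It was 13.0-fold lower in ligand than in inhibitor organoids (log2 fold change −3.70, adjusted p = 4.76e-06) and 4.15-fold higher in ibuprofen than in ligand organoids (log2 fold change 2.05, adjusted p = 0.000357). Cbs, the enzyme before it, was too low to test, with 1 and 1 reads in ibuprofen organoids, 1 and 4 in ligand organoids, and 17 and 7 in inhibitor organoids. Pycr1, a mitochondrial enzyme of proline synthesis, had 16.5 and 11.8 CPM in ibuprofen organoids, 3.60 and 3.65 CPM in ligand organoids, and 16.7 and 17.1 CPM in inhibitor organoids. The ligand libraries held 25 reads each, and ibuprofen organoids came within 0.17 log2 units of inhibitor organoids (SE 0.19, not past the threshold). Aldh18a1, which starts proline synthesis from glutamate, fell by 1.51 under the ligands and rose by 1.05 with ibuprofen. The transaminase genes Gpt2 and Got1 fell by 0.75 and 0.69 under the ligands; Gpt2 rose by 0.64 with ibuprofen, and Got1 differed by 0.29 ± 0.14 (log2 fold change ± SE), not past the threshold.

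Bcat1, the cytosolic transaminase of branched-chain amino acids, went the other way. It had 12.7 and 11.4 CPM in ibuprofen organoids, 8.89 and 10.3 CPM in ligand organoids, and 1.80 and 1.70 CPM in inhibitor organoids. The inhibitor libraries, with 13 reads each, were lowest, and the ibuprofen libraries stood above the ligand libraries without a call (0.37 ± 0.19, log2 fold change ± SE). Bcat1 rose by 1.95 ± 0.19 (log2 ± SE, adjusted p = 0.000112) in ligand organoids and by 2.32 (adjusted p = 4.58e-05) in ibuprofen organoids, both against inhibitor organoids, on a scale that understates changes of low genes. Over the 10 enzymes tested, the median log2 fold change was −1.76 under the ligands and 1.34 for ibuprofen over the ligands. Against inhibitor organoids, 6 of the 10 were lower and 1 was higher in ibuprofen organoids. Of all genes tested, 19.3% were lower and 21.1% higher there, and the number of enzymes that were higher is below that share.

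The 5 folate enzymes of the set, which pass 1-carbon units from serine, differed by cell compartment in their values for ibuprofen. Whether compartment is the dividing trait was not tested. Outside the set, none of 20 other glycine and 1-carbon genes tested was called with ibuprofen against ligand organoids by limma (unadjusted p under 0.05: 4 higher, 0 lower). The mitochondrial folate enzyme Aldh1l2, from another list, rose there. Shmt2, Mthfd2 and Mthfd1l work in mitochondria, Shmt1 and Mthfd1 in the cytosol. Shmt2, which splits serine into glycine and a 1-carbon unit, had 103 and 95.2 CPM in ibuprofen organoids, 43.3 and 43.3 CPM in ligand organoids, and 123 and 131 CPM in inhibitor organoids. Mthfd2, which oxidises the folate-bound unit, had 114 and 99.4 CPM in ibuprofen organoids, 30.8 and 30.8 CPM in ligand organoids, and 142 and 144 CPM in inhibitor organoids. Mthfd1l, which releases it as formate, had 40.9 and 43.0 CPM in ibuprofen organoids, 10.6 and 13.8 CPM in ligand organoids, and 44.8 and 44.2 CPM in inhibitor organoids. In each of these 3 genes the ligand libraries were far below the rest, and the ibuprofen libraries were close to, and all below, the inhibitor libraries. They changed under the ligands by −1.51 ± 0.09 (log2 ± SE, adjusted p = 1.03e-05), −2.15 (adjusted p = 2.67e-06) and −1.77 (adjusted p = 2.77e-05). They rose with ibuprofen by 1.25 ± 0.09 (log2 ± SE, adjusted p = 0.000122), 1.83 (adjusted p = 2.96e-05) and 1.78 (adjusted p = 0.000113), in the order Shmt2, Mthfd2, Mthfd1l. Against inhibitor organoids, ibuprofen organoids were lower in Shmt2 and Mthfd2 by 0.27 and 0.33, close to the threshold (adjusted p = 0.0498 and 0.0269), and each of these calls was lost without replicate 1 or replicate 2 of the inhibitor organoids or replicate 2 of the ibuprofen organoids, among others (adjusted p up to 0.19 and 0.132).

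Both cytosolic enzymes were lower in ibuprofen and in ligand organoids than in inhibitor organoids. Shmt1 had 11.8 and 10.3 CPM in ibuprofen organoids, 11.5 and 15.6 CPM in ligand organoids, and 28.1 and 22.0 CPM in inhibitor organoids. Mthfd1, the cytosolic enzyme that joins 3 folate reactions, had 17.6 and 13.3 CPM in ibuprofen organoids, 23.4 and 29.1 CPM in ligand organoids, and 51.7 and 34.7 CPM in inhibitor organoids. In both genes every library with ligands was below the inhibitor libraries, and in Mthfd1 both ibuprofen libraries were also below the ligand libraries, while in Shmt1 the 2 groups overlapped. Shmt1 and Mthfd1 changed by −0.82 (adjusted p = 0.00771) and −0.66 (adjusted p = 0.0311) in ligand organoids; the call of Shmt1 was lost without replicate 1 of the inhibitor organoids (adjusted p = 0.0716), and that of Mthfd1 without replicate 1 of the inhibitor or of the ligand organoids (adjusted p up to 0.213). With ibuprofen they differed from ligand organoids by −0.19 ± 0.18 (log2 ± SE, adjusted p = 0.515) and −0.67 ± 0.20 (log2 ± SE, adjusted p = 0.052), neither past the threshold. Mthfd1 was called lower there without replicate 1 or replicate 2 of the inhibitor organoids, with no scaling and with only the 2 groups fitted. Against inhibitor organoids both were lower in ibuprofen organoids, at −1.02 (adjusted p = 0.00266) and −1.32 (adjusted p = 0.00114). The cycling cell markers, whose sums are given above, had all 10 lower in ligand than in inhibitor organoids and none called between ibuprofen and ligand organoids by limma (unadjusted p under 0.05: 0 higher, 1 lower), and their part in these values was not tested.

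As a ratio of CPM, Mthfd2 to Mthfd1 was 6.47 and 7.48 in ibuprofen organoids, 1.32 and 1.06 in ligand organoids, and 2.74 and 4.14 in inhibitor organoids. Shmt2 to Shmt1 was 8.70 and 9.25 in ibuprofen organoids, 3.77 and 2.77 in ligand organoids, and 4.39 and 5.98 in inhibitor organoids. In both ratios the ibuprofen libraries were highest and the ligand libraries lowest, with no overlap; the difference between the enzymes was not itself tested.

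The amino acid transporters had the lowest median of the 4 role groups under the ligands, −2.15, with 8 of the 9 lower and 1 higher. Of all genes tested, 19.4% were lower and 20.8% higher there, and the number of transporters that were higher is below that share. Slc7a1, the cationic amino acid carrier CAT-1, had 265 and 205 CPM in ibuprofen organoids, 101 and 123 CPM in ligand organoids, and 484 and 526 CPM in inhibitor organoids. Slc7a5, the light chain LAT1 that imports large neutral amino acids, had 159 and 129.7 CPM in ibuprofen organoids, 79.8 and 76.0 CPM in ligand organoids, and 380.1 and 465 CPM in inhibitor organoids. Slc3a2, the heavy chain that LAT1 pairs with, had 199 and 157 CPM in ibuprofen organoids, 113 and 127 CPM in ligand organoids, and 425 and 525 CPM in inhibitor organoids. In all 3 the groups were apart, the ligand libraries lowest and the inhibitor libraries highest. They changed by −2.15 ± 0.13 (log2 ± SE, adjusted p = 9.8e-06), −2.40 (adjusted p = 5.69e-06) and −1.95 (adjusted p = 2.06e-05) in ligand organoids, and by 1.13 ± 0.13 (log2 ± SE, adjusted p = 0.000839), 0.94 (adjusted p = 0.00189) and 0.62 (adjusted p = 0.0153) with ibuprofen. The rise of Slc3a2 did not pass the threshold without replicate 1 of the ligand or of the ibuprofen organoids (adjusted p up to 0.107). As a ratio of CPM, the light chain to the heavy chain was 0.80 and 0.83 in ibuprofen organoids, 0.705 and 0.599 in ligand organoids, and 0.894 and 0.885 in inhibitor organoids, lowest in both ligand libraries.

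Of the carriers of neutral amino acids and glycine, Slc1a5, Slc6a9 and Slc38a2 also fell under the ligands and rose with ibuprofen. Slc1a5, the glutamine exchanger ASCT2, had 34.4 and 24.5 CPM in ibuprofen organoids, 12.2 and 17.8 CPM in ligand organoids, and 108 and 104 CPM in inhibitor organoids. Slc6a9, the glycine transporter GlyT1, had 109.9 and 70.9 CPM in ibuprofen organoids, 37.4 and 29.3 CPM in ligand organoids, and 169.9 and 154 CPM in inhibitor organoids. In both genes the 3 groups were apart. Slc1a5 changed by −2.74 (adjusted p = 1.62e-05) under the ligands and rose by 1.00 (adjusted p = 0.00721) with ibuprofen, a call lost without replicate 1 of the ibuprofen organoids (adjusted p = 0.0618). Slc6a9 changed by −2.23 (adjusted p = 6.3e-05) under the ligands and rose by 1.46 (adjusted p = 0.00168); 27.8% of its exonic bases are shared with Ccdc24 on the other strand. Slc38a2, the glutamine and alanine carrier SNAT2, had 835 and 686 CPM in ibuprofen organoids, 509 and 466 CPM in ligand organoids, and 1327 and 1209 CPM in inhibitor organoids. It fell by 1.36 under the ligands and rose by 0.70 with ibuprofen (adjusted p = 6.59e-05 and 0.0051, limma). Slc1a4, the exchanger ASCT1, fell by 1.38 under the ligands. Its difference between ibuprofen and ligand organoids, 0.30 ± 0.17 (log2 ± SE), was not past the threshold, and the libraries of those groups overlapped.

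Slc7a3, the cationic carrier CAT-3, was low and moved far. It had 21.1 and 12.8 CPM in ibuprofen organoids, 2.05 and 1.60 CPM in ligand organoids, and 15.7 and 14 CPM in inhibitor organoids. The ligand libraries, with 14 and 11 reads, were lowest, and ibuprofen and inhibitor libraries overlapped. Slc7a3 changed by −2.47 ± 0.25 (log2 ± SE, adjusted p = 0.000117) in ligand organoids and by 2.69 ± 0.25 (log2 ± SE, adjusted p = 0.000289) with ibuprofen. Slc38a1, the related carrier SNAT1, rose instead: it had 6.80 and 7.50 CPM in ibuprofen organoids, 4.05 and 5.95 CPM in ligand organoids, and 2.75 and 2.35 CPM in inhibitor organoids, resting on 18 to 48 reads per library. Its rise in ligand organoids, 0.75 (adjusted p = 0.0301), did not pass the threshold without either inhibitor library or without replicate 2 of the ligand organoids (adjusted p up to 0.165), while ibuprofen organoids were above inhibitor organoids at 1.27 (adjusted p = 0.00266). With ibuprofen, 7 of the 9 transporters rose against ligand organoids and none fell (unadjusted p under 0.05: 7 higher, 0 lower), and against inhibitor organoids 7 were lower and 1 higher. Among all genes tested, 10.5% rose and 8.98% fell in the first of these comparisons, and 19.3% were lower and 21.1% higher in the second.

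Of 25 other amino acid transporters, listed for comparison, 19 were tested. Under the ligands 10 of the 19 rose and 2 fell, where 8 of 8 fibroblast markers also rose, whose part was not tested, while 20.8% of all genes tested rose and 19.4% fell. With ibuprofen 2 of the 19 rose and 3 fell against ligand organoids, where 10.5% of all genes rose and 8.98% fell, so that the number that rose is near that share. Slc6a6, the taurine transporter, had 102 and 108 CPM in ibuprofen organoids, 384 and 349 CPM in ligand organoids, and 80.3 and 66.1 CPM in inhibitor organoids, with the ligand libraries highest, and changed by 2.33 ± 0.12 (log2 ± SE, adjusted p = 3.96e-06) under the ligands and by −1.72 ± 0.12 (log2 ± SE, adjusted p = 6.83e-05) with ibuprofen. Slc7a2, the cationic carrier CAT-2, had 62.8 and 69.4 CPM in ibuprofen organoids, 49.3 and 65.2 CPM in ligand organoids, and 4.95 and 9.34 CPM in inhibitor organoids, with no overlap between either ligand-treated group and the inhibitor group. It rose by 2.89 (adjusted p = 4.69e-05) under the ligands, where Slc7a1 and Slc7a3 fell. The lysosomal carrier Slc36a1 rose by 1.11 under the ligands, and Slc1a1, a glutamate transporter, rose by 0.86 under the ligands and by 1.87 more with ibuprofen. Slc7a8, the light chain LAT2, fell by 2.03 and rose by 1.5, and Slc6a14, a broad amino acid importer, was 2.00 higher on the log2 scale in ibuprofen than in inhibitor organoids. The summed level of the 25 was 1403 and 1184 CPM in ibuprofen organoids, 1392 and 1153 CPM in ligand organoids, and 518 and 515 CPM in inhibitor organoids, whereas the 9 members summed to 1671 and 1320 CPM, 884 and 878 CPM, and 2993 and 3068 CPM in those groups.

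**Figure D4:**
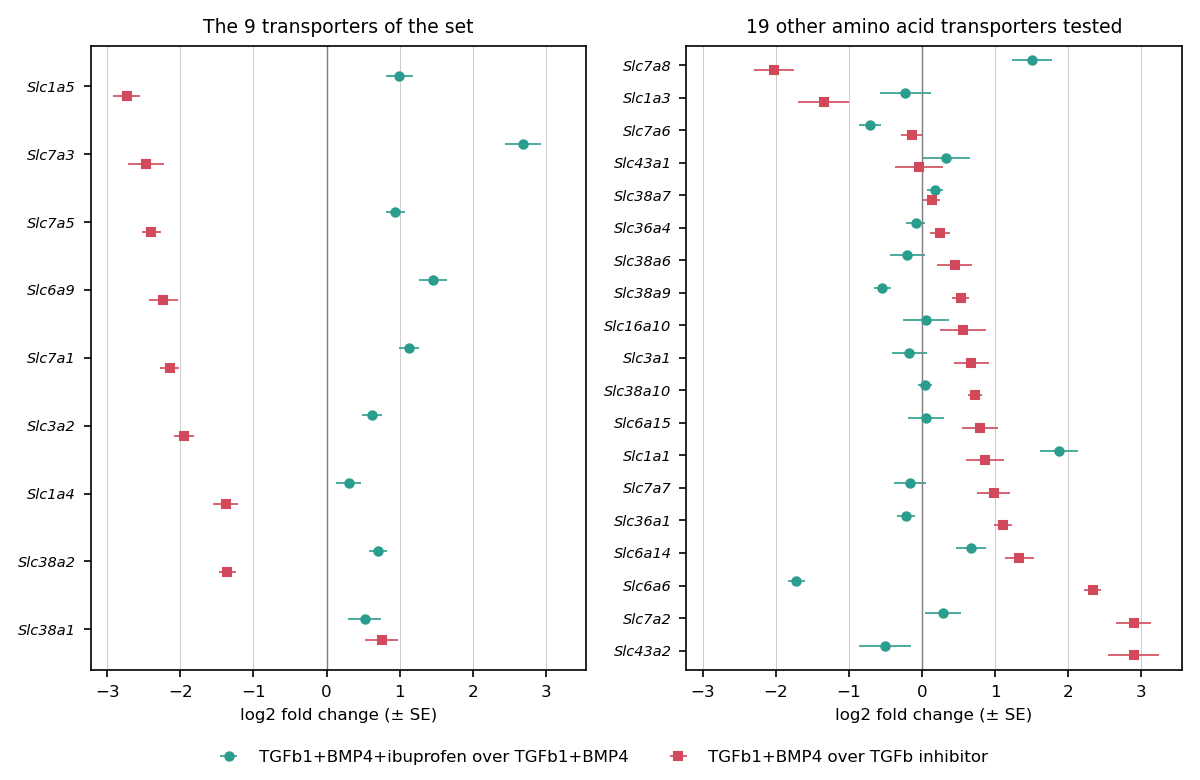
Log2 fold change with its SE for the 9 transporters of the set (left) and 19 other amino acid transporters (right), for ibuprofen over ligand organoids (circles) and ligand over inhibitor organoids (squares). On the left 8 of the 9 squares lie below 0, and on the right 15 of the 19 lie above 0.

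By role, the summed levels kept the same order of groups but different distances. The 15 stress response genes averaged 1487 ± 227 CPM in ibuprofen organoids, 882 ± 34.8 CPM in ligand organoids and 1848 ± 57.7 CPM in inhibitor organoids (mean ± SD of 2 libraries, as in the next sentences). The 11 synthesis enzymes averaged 667 ± 98.1 CPM, 286 ± 18.2 CPM and 1219 ± 9.22 CPM in those groups. The 5 folate enzymes averaged 274 ± 18.7 CPM in ibuprofen organoids, 126 ± 9.26 CPM in ligand organoids and 383 ± 9.94 CPM in inhibitor organoids. The ibuprofen mean was 80.5% of the inhibitor mean for the stress genes, 71.7% for the folate enzymes, 54.7% for the synthesis enzymes and 49.3% for the transporters, and the ligand mean was 47.8%, 33.0%, 23.4% and 29.1% in the same order. Such sums are carried by the genes with the highest levels. Per tested gene, the median log2 fold change of ibuprofen over inhibitor organoids was −0.32, −0.33, −0.43 and −1.02 in that order.

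**Figure D5:**
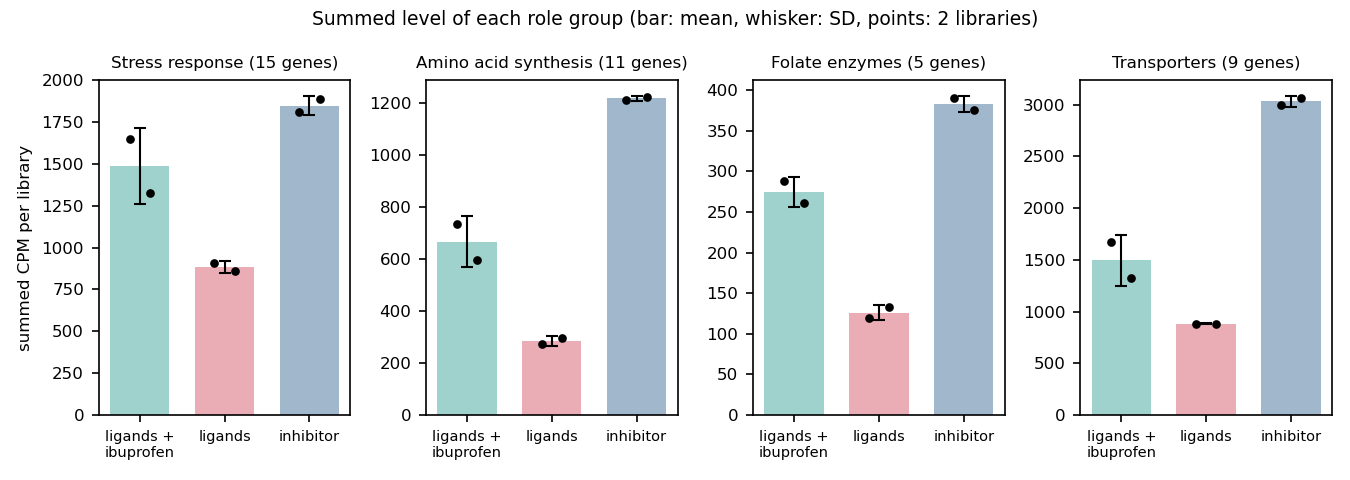
Summed CPM of each role group per library in ibuprofen organoids (ligands + ibuprofen), ligand organoids (ligands) and inhibitor organoids (inhibitor); bars are means, whiskers SD and points the 2 libraries. In each panel the ligand bar is lowest and the inhibitor bar highest, and the points of the 3 groups do not overlap.

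Levels were also divided by the length of all annotated exons, for a rough comparison between genes. Which transcripts of a gene were expressed was not measured, so the ranks are approximate. Atf4 led the stress genes in each group, at 132 CPM per kb in ibuprofen organoids, 86.3 in ligand organoids and 197 in inhibitor organoids. Trib3 was second among them in inhibitor organoids (99.9 CPM per kb) but sixth in ibuprofen organoids (38.8) and eleventh in ligand organoids (9.97), while Ddit4 was second in ibuprofen organoids (113). Asns led the enzymes of amino acid synthesis in each group, at 91.3, 29.9 and 144 CPM per kb in ibuprofen, ligand and inhibitor organoids. Psat1 was second in inhibitor organoids (59.9 CPM per kb) and seventh in the other two groups (8.86 with ibuprofen, 3.63 with ligands alone). Among the transporters Slc38a2, Slc3a2, Slc7a5 and Slc7a1 kept their order in all 3 groups.

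Other genes of the pathway were read from lists, 101 genes in 5 lists with 90 tested. Of 16 further ATF4 or CHOP targets, 10 fell and 1 rose under the ligands, and 11 rose with ibuprofen against ligand organoids, while 19.4% of all genes tested fell and 20.8% rose in the first comparison and 10.5% rose in the second. Slc7a11, the cystine importer, had 532 and 534 CPM in ibuprofen organoids, 71.5 and 157 CPM in ligand organoids, and 1542 and 2101 CPM in inhibitor organoids, the groups being apart, and changed by −4.05 (adjusted p = 2.31e-05) and 2.39 (adjusted p = 0.00105) in those comparisons. Aldh1l2, a mitochondrial folate enzyme, had 99.6 and 101 CPM in ibuprofen organoids, 33.1 and 44.3 CPM in ligand organoids, and 439 and 378 CPM in inhibitor organoids, again with the groups apart, and changed by −3.36 (adjusted p = 1.36e-06) and 1.44 (adjusted p = 0.000252). The stress factor Atf3 fell by 2.52 under the ligands, and the tRNA exporter Xpot and the growth factor Vegfa rose by 0.90 and 1.47 with ibuprofen. The hormone gene Fgf21, at 1.15 CPM or less in the 4 libraries without ibuprofen, had 6.25 and 4.25 CPM in ibuprofen organoids and was higher than in ligand organoids by 1.61 on the log2 scale (adjusted p = 0.00299). In the ligand organoids, 9 of 14 eIF2 kinase, eIF2, eIF2B and phosphatase genes fell and 2 rose. The subunit Eif2s2 changed by −0.87 there and was also the 1 gene of this list to rise with ibuprofen, by 0.81. The numbers of this list that rose, in both comparisons, are near or below the shares of all genes given above. Ppp1r15b, the constitutive partner of the eIF2 phosphatase, fell by 0.57 under the ligands.

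Of the 20 tested genes of glycine and methyl metabolism outside the set, 8 fell and 4 rose under the ligands, where 19.4% of all genes fell and 20.8% rose, so that the number that rose is near that share. None was called with ibuprofen against ligand organoids by limma (unadjusted p under 0.05: 4 higher, 0 lower). Mat2a, which makes S-adenosylmethionine, had 139 and 142 CPM in ibuprofen organoids, 109 and 139 CPM in ligand organoids, and 510.4 and 495 CPM in inhibitor organoids. Its ligand and ibuprofen libraries were all below the inhibitor libraries, at −2.00 (adjusted p = 5.07e-06) for ligand over inhibitor organoids. The mitochondrial serine carrier Sfxn1 and the enzyme Ahcy fell by 0.75 and 1.21 under the ligands. Among 21 other amino acid enzymes tested, 9 fell and 4 rose under the ligands, and 2 rose and 1 fell with ibuprofen against ligand organoids; the numbers that rose, in both comparisons, and the number that fell with ibuprofen are near or below the shares of all genes. Arg1 and Ass1, enzymes of arginine breakdown and synthesis, rose by 2.87 and 1.41 under the ligands, and Prodh, which degrades proline, fell by 2.25. With ibuprofen, Odc1, the first enzyme of polyamine synthesis, rose by 1.09 against ligand organoids, Got2 rose by 0.36 and Gpt fell by 0.83.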

How the data were processed

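Bulk RNA sequencing gave 6 libraries, 2 per treatment. Per the submitters' processing notes, STAR 2.5.3a, HTSeq, edgeR and Cell Ranger 3.1.0 were used on GRCm38, without a role for each; whether counting used strand is not given in the sources used here. The deposited table holds, per the file headers, a signal of counts scaled by the authors to totals of 20010331 to 20013923 per library and rounded up, CPM by the authors, and the authors' log2 fold changes over the inhibitor. Depth was derived from the step between scaled values; it sets the precision of low values, and read numbers cover counting error only.

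CPM were scaled by TMM factors, log2(CPM + 1) was taken, and genes with at least 1 CPM in at least 2 libraries were tested with limma 3.58.1 in R 4.3.3, in a single model of the 3 groups (residual degrees of freedom: 3) with a variance trend and Benjamini-Hochberg adjustment over 18241 genes, threshold 0.05. Fold changes on this scale understate those of low genes. The fit was also run on simulated data, with far fewer changed genes and the same spread beyond counting error for every gene. That run checks the code and not the calls made here.

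The 40 genes and the lists were chosen with earlier results of these data known. Per role, genes with the smallest adjusted p in each comparison are given in every library, the others by their changes; of each pathway list, up to 3 per comparison. Gene lengths and positions come from GENCODE vM21, with 52489 of 52636 identifiers matched; 12 of the 40 genes share exonic bases with another gene, 3 of them over 10% (Cebpb, Psph, Slc6a9). Alternatives were other scaling, filters and pseudocounts, a replicate block, 2 groups at a time and leaving out each library.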

Additional observations from a re-analysis of the deposited data

How the results depend on the processing

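Each member's log2 fold change was recomputed under 14 alternatives. Under the ligands 534 of these values kept direction and side of the threshold, 10 lost the threshold and 2 changed sign. For ibuprofen over ligand organoids the numbers were 527, 5 and 2, with 12 newly past the threshold. For ibuprofen over inhibitor organoids they were 491, 34 and 14, with 7 newly past. No sign change was of a called gene. For Mthfd1l in ibuprofen over inhibitor organoids (main value 0.01) the filter of 5 CPM gave −0.00161, no filter gave −0.00634 and no scaling gave −0.0836. For Psph in that comparison no scaling gave −0.0316. Where leaving out 1 library changed a sign, the values ranged from −0.0251 to 0.236 for Eif2ak3 in ibuprofen over ligand organoids, from −0.12 to 0.19 for Eif2ak4 and from −0.36 to 0.17 for Nupr1 in ligand over inhibitor organoids. In ibuprofen over inhibitor organoids they ranged from −0.257 to 0.0634 for Eif4ebp1, from −0.0470 to 0.0425 for Mthfd1l, from −0.20 to 0.30 for Psph, from −0.393 to 0.0377 for Pycr1, from −0.11 to 0.55 for Slc7a3 and from −0.264 to 0.0567 for Vldlr.

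Leaving out each library in turn gave 4705 to 7324 genes called in ligand over inhibitor organoids, 4707 to 7522 in ibuprofen over inhibitor organoids and 1615 to 2886 in ibuprofen over ligand organoids, with fewer libraries in each fit. The lowest counts came without inhibitor replicate 1 (4705, 4707), inhibitor replicate 2 (4819), ligand replicate 2 (2257) and ibuprofen replicate 1 (1615). Members called higher were 2 to 3, 4 to 6 and 23 to 28 in those comparisons, and members called lower 32 to 34, 17 to 24 and 0 to 1. Without a filter 2355 genes were called in ibuprofen over ligand organoids, against 3556. There 1 member, Mthfd1, was called lower with no scaling, with only the 2 groups compared, with the replicate block, and without either inhibitor library, and the cause was not tested. With no scaling 43.2% of the genes called there were higher, against 53.9%, and the median of all genes was −0.07. The element TGATGCAAT was in 2 members and 60 genes.

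Same-numbered libraries deviated together across 18241 genes, with correlations of 0.257, 0.189 and 0.174, but the labels do not say that a number marks a shared culture. With the replicate block 7954, 7993 and 4336 genes were called in ligand over inhibitor, ibuprofen over inhibitor and ibuprofen over ligand organoids, with 3, 5 and 28 members higher and 34, 23 and 1 lower in the same order. The block put Ddit3 and Atf5 past the threshold in ibuprofen over ligand organoids.

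The count test by edgeR was not run: the deposited values were scaled and then rounded up, so they are not themselves multiples of what 1 read is worth, although 99.9% of them in each library fit whole reads once the rounding up is allowed for. Stc2, Slc7a3, Bcat1, Slc38a1 and Cbs rest on few reads in at least 1 group.

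The calls in ibuprofen over inhibitor organoids of Aldh18a1, Cebpg, Ddit3, Got1 and Slc6a9 were lost without at least 1 library (adjusted p up to 0.0645, 0.0882, 0.117, 0.238 and 0.0732). Without 1 library, Slc1a4 was newly past the threshold in ibuprofen over ligand organoids (ibuprofen replicate 2), and Eif2ak4 (ibuprofen replicate 2), Ppp1r15a (ibuprofen replicate 1) and Chac1 (either ligand replicate) in ibuprofen over inhibitor organoids.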
